A study of Mus musculus with 2 samples.

Results

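The circadian clock genes examined here were *Arntl*, *Clock*, *Per1*, *Per2*, *Per3*, *Cry1*, *Cry2*, *Nr1d1*, *Nr1d2* and *Dbp*, chosen by symbol as the core activators, repressors and outputs of the clock because the libraries are labelled with hours. They are 10 of the 23183 genes with a value in the deposited tables. The cells were grown from lung cancers of mice with a Tomato reporter, the FlpERT2 recombinase and the alleles Runx3 flox/FSF, p53 flox/flox and K-Ras LSL-G12D/+, infected at 6 to 8 weeks of age with an adenovirus for Cre, whose lungs were taken 4 weeks later. Cre switches on oncogenic K-Ras and deletes p53 and the floxed Runx3 allele, and a Frt-Stop-Frt cassette (FSF) keeps the other Runx3 allele off, so that cells of both groups lack p53. In KPRrestored cells, 4-OHT, an active form of tamoxifen, has switched on the FlpERT2 recombinase, which removes the cassette. Poly(A) RNA was sequenced as 1 library of KPR- cells (genotype label RUNX3 -/-, 0 h) and 1 library of KPRrestored cells (RUNX3 -/+, 16 h). The labels list 1 μM 4-OHT and 10% serum for both libraries. In the paper, 4-OHT treatment of KPR- cells restores Runx3, and the sources used here do not settle this conflict with the labels. Restoration of Runx3, any difference in 4-OHT exposure and the labelled hours therefore cannot be told apart. Without replicates, no difference was set against the spread between cultures.

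The mammalian clock is a feedback loop of transcription in nearly every cell. BMAL1 (encoded by *Arntl*) and CLOCK bind E-box elements and activate the *Per* and *Cry* genes, whose proteins return to the nucleus and repress CLOCK and BMAL1. A second loop runs through the nuclear receptors REV-ERBα (*Nr1d1*) and REV-ERBβ (*Nr1d2*), which repress genes with a ROR response element (RORE) such as *Arntl*, while ROR receptors activate them. DBP carries the rhythm to further genes through the D-box, where NFIL3 acts against it. In cycling tissue *Arntl* peaks at about the opposite time to *Dbp*, *Per* and *Nr1d1*, and serum can set the phase of cultured cells.

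Promoter windows were available from RefSeq (GRCm38.p6) for 9 of the 10 genes, 13 windows in all, each from 250 bases before to 50 bases after a transcription start. *Per2* is not in that table. The stretches below hold the clock elements found near the starts of the genes whose levels are compared, with the matched letters in capitals and the gene's own strand read 5′ to 3′. They were searched on both strands for the E-box (CACGTG), the E′-box (CACGTT), the D-box (TTATGTAA or TTACGTAA) and the RORE.
*Arntl*, RORE, chr7:113207528-113207556 (plus strand): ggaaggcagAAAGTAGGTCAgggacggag
*Cry1*, E′-box and E-box, chr10:85185089-85185153 (minus strand): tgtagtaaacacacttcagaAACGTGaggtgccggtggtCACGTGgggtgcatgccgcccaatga
*Per1*, E-box, chr11:69098763-69098808 (plus strand): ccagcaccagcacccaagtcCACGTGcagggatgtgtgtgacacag
*Per3*, both D-boxes, chr4:151044796-151044890 (minus strand): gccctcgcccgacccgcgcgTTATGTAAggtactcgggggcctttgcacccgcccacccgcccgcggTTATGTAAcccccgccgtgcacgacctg
*Nr1d1*, E′-box, chr11:98775380-98775425 (minus strand): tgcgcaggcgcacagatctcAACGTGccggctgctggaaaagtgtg
*Cry2*, E′-box, chr2:92434210-92434255 (minus strand): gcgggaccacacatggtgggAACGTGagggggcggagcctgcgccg

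The RORE of *Arntl* begins at base 27 counted from one of its annotated starts, in exon sequence annotated as untranslated, and such an element was present in 0.384% of 32817 promoter windows of the same length. The D-boxes of *Per3* begin 205 and 158 bases upstream of its start, and a D-box was present in 1.05% of windows. An E-box was present in 7.15% of windows and an E′-box in 4.69%, so the matches of *Per1*, *Cry1*, *Cry2* and *Nr1d1* are of more frequent kinds. The windows of *Nr1d2* and *Dbp* held none of these letters, which says nothing of elements farther away. The RUNX element (TGTGGTT, in 5.27% of windows) was found once, 68 bases upstream of the most downstream of the 3 *Clock* starts. The cAMP response element (TGACGTCA, in 1.79% of windows) was found in no window of the members. A match of letters is a description and not a bound site.

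The depth was estimated at 21.7 M fragments for KPR- and 22.5 M for KPRrestored, from the steps that whole fragments leave in low FPKM values. FPKM is the number of fragments scaled to the length of the transcript and to the depth of the library, and the 95% intervals below cover counting error only. *Runx3*, on chromosome 4 from 135120652 to 135177990 (plus strand), was at 0.348 FPKM (KPR-) and 0.349 FPKM (KPRrestored). Its values rest on about 28 and 29 fragments, and the interval of the log2 difference was -0.79 to 0.81. They also pool all *Runx3* transcripts, so they do not check the labels. Each direction below is that of the library labelled KPRrestored against the library labelled KPR-. All 6 epithelial markers were expressed in both libraries, with *Krt18* at 1931 and 1676 FPKM, and *Krt7* was lower in KPRrestored, at 1229 and 743 FPKM (log2 difference -0.73). Of 6 lung lineage markers, 5, including *Sftpc* and *Scgb1a1*, were listed at 0 in both libraries and *Nkx2-1* was at 0.0444 and 0.0216 FPKM. The 6 immune markers summed to 3.08 and 6.83 FPKM, nearly all of it *Cd68*, with *Cd3e*, *Adgre1* and *Lyz2* at 0 in both, and the 4 endothelial markers to 1.19 and 2.24 FPKM, mostly *Kdr*. The mesenchymal list of 7 summed to 2042 and 1718 FPKM, mostly *Vim*. *Col1a1*, a collagen gene on that list, was lower in KPRrestored, at 12.2 and 4.21 FPKM. Its log2 difference of -1.53 is larger in size than that of any of the 10 clock genes. *Col1a2*, also a collagen gene on that list, was at 0.0463 and 0.018 FPKM, from about 5 and 2 fragments. The part of these markers in the clock gene differences was not tested.

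All 10 clock genes had a mean of at least 1 FPKM, from 1.52 for *Per3* to 10.5 for *Nr1d1*. A gene was called higher or lower when log2(FPKM + 0.005) differed by 0.5 or more, a fold of 1.41. By this rule *Arntl* and *Cry1* were higher in KPRrestored, *Per2*, *Per3* and *Dbp* were lower, and *Clock*, *Per1*, *Cry2*, *Nr1d1* and *Nr1d2* lay within the threshold. Of all 11231 genes with a mean of at least 1 FPKM, 12.1% were called higher and 9.29% lower, 21.4% in all, against 5 of the 10 clock genes. Among the 4204 genes whose mean FPKM lay within the range of the clock genes, 27.1% were called. The counting interval excluded 0 for 8 of the 10 clock genes and for 67.5% of the 10790 genes with an interval, so at this depth that exclusion alone sets few genes apart. The median difference of the 10 genes was -0.11, with 4 above 0 and 6 below, beside 0.0086 for all genes, whose quartiles were -0.23 and 0.27. In bulk RNA, fewer cells of a type cannot be told apart from less RNA per cell, and with 1 library at each labelled hour neither the phase nor the amplitude of a rhythm was measured.

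**Figure D1:**
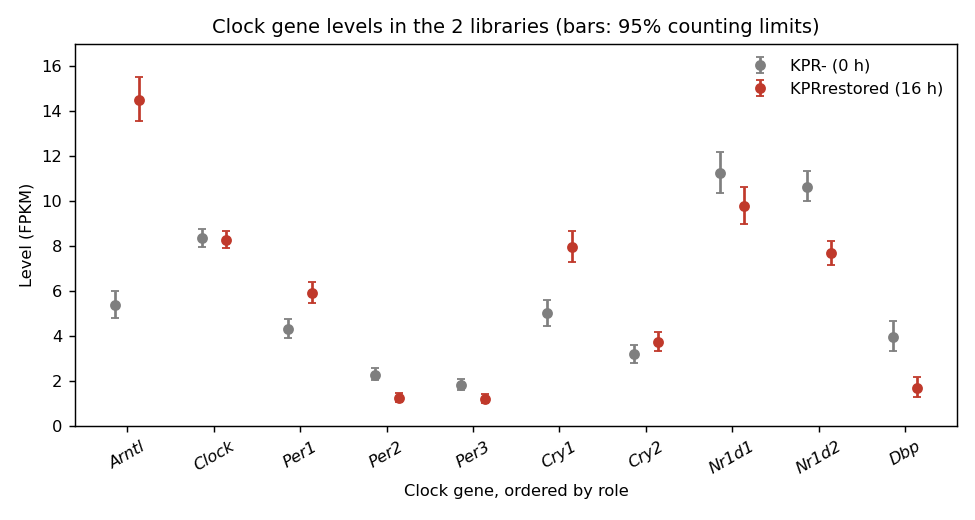
Level of each clock gene in FPKM (vertical axis) in the KPR- library (grey) and the KPRrestored library (red), 1 library each, with 95% limits for counting error. *Arntl* goes from 5.37 to 14.5 FPKM and *Cry1* from 5.02 to 7.97, while *Dbp*, *Per2* and *Per3* lie lower in KPRrestored and *Clock* is at 8.35 and 8.29.

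Of the activators, *Arntl* (chromosome 7, 113207465 to 113314126, plus strand) had 5.37 FPKM in KPR- and 14.5 FPKM in KPRrestored. These values rest on about 315 and 879 fragments, and the library labelled KPRrestored stands 2.71-fold above the other. The log2 difference was 1.44 (95% counting interval 1.25 to 1.63), the 143rd highest among the 11231 genes. *Clock* (chromosome 5, 76209868 to 76304792, minus strand), whose protein pairs with BMAL1 and carries histone acetyltransferase activity, had 8.35 and 8.29 FPKM. Its difference of -0.01 had an interval of -0.11 to 0.09, so a difference of 0.5 either way lies outside what counting error allows. *Arntl* thus stood at 0.643 of the *Clock* level in KPR- and at 1.75 times it in KPRrestored. The subunits of this one heterodimer did not move together at the transcript level.

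The *Per* genes, which encode the PERIOD repressors, went in different directions. *Per1* (chromosome 11, 69095217 to 69109960, plus strand) is an early responder to serum, cAMP and glucocorticoids, and had 4.32 FPKM in KPR- and 5.92 FPKM in KPRrestored. Its difference of 0.45 (interval 0.27 to 0.64) was just under the threshold. *Per2* (chromosome 1, 91415982 to 91459324, minus strand), a PERIOD protein required for lasting rhythms, had 2.29 and 1.27 FPKM, from about 280 and 160 fragments. It was lower in KPRrestored by a log2 difference of -0.85 (interval -1.14 to -0.57). *Per3* (chromosome 4, 151003652 to 151044665, minus strand), the gene with the pair of D-boxes shown above, had 1.83 and 1.21 FPKM, from about 231 and 157 fragments. Its difference was -0.60 (interval -0.91 to -0.31). The intervals of *Per2* and *Per3* overlap each other and lie apart from that of *Per1*. With the shortest coding transcript, which leaves *Per1* about 28 and 37 fragments, its interval of -0.33 to 1.18 met that of *Per3*. The FPKM sum of the 3 genes was 8.45 in KPR- and 8.40 in KPRrestored, so their total was alike while *Per1* went from 1.89 to 4.67 times the level of *Per2*.

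The *Cry* genes encode the cryptochromes, which bind CLOCK and BMAL1 and are the stronger repressors of the loop. *Cry1* (chromosome 10, 85131700 to 85185064, minus strand) has both an E-box class and a RORE class of control and peaks late in the cycle of most tissues. It had 5.02 FPKM in KPR- and 7.97 FPKM in KPRrestored, from about 307 and 503 fragments, a log2 difference of 0.67 (interval 0.46 to 0.88). *Cry2* (chromosome 2, 92403646 to 92434043, minus strand) had 3.20 and 3.76 FPKM, and its difference of 0.23 had an interval of -0.01 to 0.47. The *Cry1* level was 1.57 times that of *Cry2* in KPR- and 2.12 times in KPRrestored, and the counting intervals of both differences just met, between 0.46 and 0.47. Of the exon bases of *Cry2*, 4.67% are shared with *D930015M05Rik* on the opposite strand, which had 0.419 and 0.0908 FPKM.

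The REV-ERB genes were the most abundant members in KPR- and were lower in KPRrestored by less than the threshold. *Nr1d1* (chromosome 11, 98767932 to 98775333, minus strand) had 11.2 FPKM in KPR- and 9.78 FPKM in KPRrestored, a difference of -0.20 (interval -0.37 to -0.03). Its exons share 8.55% of their bases with *Thra*, a thyroid hormone receptor gene on the opposite strand that had 13.3 and 10.5 FPKM, and whether counting used the strand is not given in the sources used here. *Nr1d2* (chromosome 14, 18204054 to 18239127, minus strand) had 10.7 and 7.69 FPKM, a difference of -0.47 (interval -0.61 to -0.34), just inside the threshold. In KPR- the *Arntl* level was 0.477 of the *Nr1d1* level, and in KPRrestored it was 1.49 times that level. This exchange of places came mostly from *Arntl*, whose difference was 1.44, and less from *Nr1d1*.

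*Dbp* (chromosome 7, 45705088 to 45710203, plus strand), the output gene, had 3.98 FPKM in KPR- and 1.70 FPKM in KPRrestored, from about 141 and 62 fragments. The KPR- level was 2.35-fold above that of KPRrestored, and the log2 difference of -1.23 (interval -1.68 to -0.78) was the 91st lowest among 11231 genes. *Arntl* went from 1.35 times the *Dbp* level in KPR- to 8.57 times in KPRrestored. *Arntl* had the largest rise and *Dbp* the largest fall of the 10 clock genes, so this ratio restates those differences. Of the exon bases of *Dbp*, 18.0% are shared with *Sphk2*, a sphingosine kinase gene on the opposite strand. *Sphk2* had 9.97 and 12.2 FPKM, a difference of 0.29 in the other direction.

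**Figure D2:**
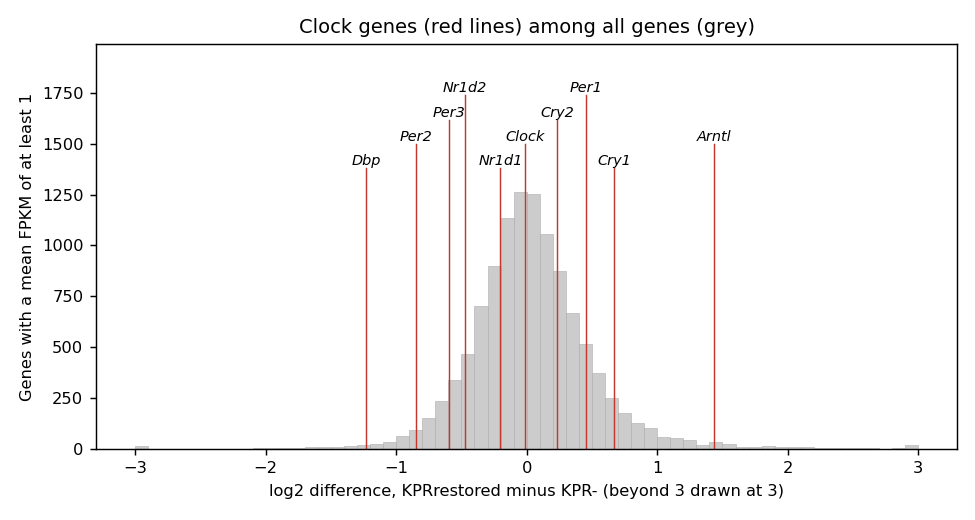
Histogram of the log2 difference (horizontal axis, KPRrestored minus KPR-) of the 11231 genes with a mean of at least 1 FPKM, with the number of genes on the vertical axis and each clock gene as a red line. *Arntl* (1.44) lies in the upper tail and *Dbp* (-1.23) in the lower tail, while *Clock* (-0.01) lies at the centre.

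In KPR- the order of levels was *Nr1d1*, *Nr1d2*, *Clock*, *Arntl*, *Cry1*, *Per1*, *Dbp*, *Cry2*, *Per2* and *Per3*. The counting limits of *Nr1d1* and *Nr1d2* overlapped, as did those of each neighbouring pair from *Arntl* down to *Cry2*, and those of *Per2* and *Per3*. In KPRrestored the order was *Arntl*, *Nr1d1*, *Clock*, *Cry1*, *Nr1d2*, *Per1*, *Cry2*, *Dbp*, *Per2* and *Per3*. There the limits of *Clock* and *Cry1*, of *Cry1* and *Nr1d2*, of *Dbp* and *Per2* and of *Per2* and *Per3* overlapped, and those of the other neighbours did not. *Arntl* moved from the fourth place to the first and stood clear of the next gene. The FPKM sum over all 10 genes was 56.3 in KPR- and 62.1 in KPRrestored.

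Genes known to be driven through the RORE by the ROR and REV-ERB receptors formed a list of 6, of which *Arntl*, *Clock*, *Nfil3* and *Cry1* were expressed at a mean of at least 1 FPKM. Of these 4 genes, 3 were higher and 0 lower, with a median difference of 0.95, beside 12.1% higher and 9.29% lower of all genes. *Arntl*, *Clock* and *Cry1* are members already counted above, so only *Nfil3* is added by this list. *Nfil3*, a repressor that competes with DBP at the D-box, had 5.84 FPKM in KPR- and 13.7 FPKM in KPRrestored, from about 231 and 558 fragments. Its difference of 1.23 (interval 1.01 to 1.46) was close in size to that of *Arntl*. The level of *Nfil3* was 1.47 times that of *Dbp* in KPR- and 8.09 times in KPRrestored.

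Genes known to be driven by CLOCK and BMAL1 through the E-box formed a list of 13, of which 11 were expressed. They divided, with 3 higher, 4 lower and a median of -0.20, beside 12.1% higher and 9.29% lower of all genes. *Cry1* was listed with the RORE genes only. Counted here as well, for the E-box and E′-box near its start, it makes 4 higher and 4 lower, and the median 0.016. The 4 lower genes were *Dbp*, *Per2* and *Per3*, members already counted above, and *Tef*. The expressed genes within the threshold, *Per1*, *Cry2*, *Nr1d1* and *Nr1d2*, are members as well, and the median of -0.20 is the *Nr1d1* value. This list therefore adds only *Tef*, *Ciart*, *Bhlhe41* and *Bhlhe40*. *Tef*, a D-box activator of the same family as DBP, had 10.3 and 6.59 FPKM, a difference of -0.64 (interval -0.79 to -0.49). The higher genes were *Ciart*, *Bhlhe41* and *Bhlhe40*, whose proteins all repress CLOCK and BMAL1. *Ciart* (also called Chrono) had 4.43 FPKM in KPR- and 15.2 FPKM in KPRrestored, from about 115 and 404 fragments, a 3.43-fold level and a log2 difference of 1.78 (interval 1.48 to 2.09). *Bhlhe41* (DEC2) had 2.31 and 5.12 FPKM, a difference of 1.15, and *Bhlhe40* (DEC1) had 43.9 and 71.8 FPKM, a difference of 0.71. *Ciart*, *Bhlhe41* and *Bhlhe40* share the E-box class with *Dbp* and *Per2* but lay on the other side of 0.

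**Figure D3:**
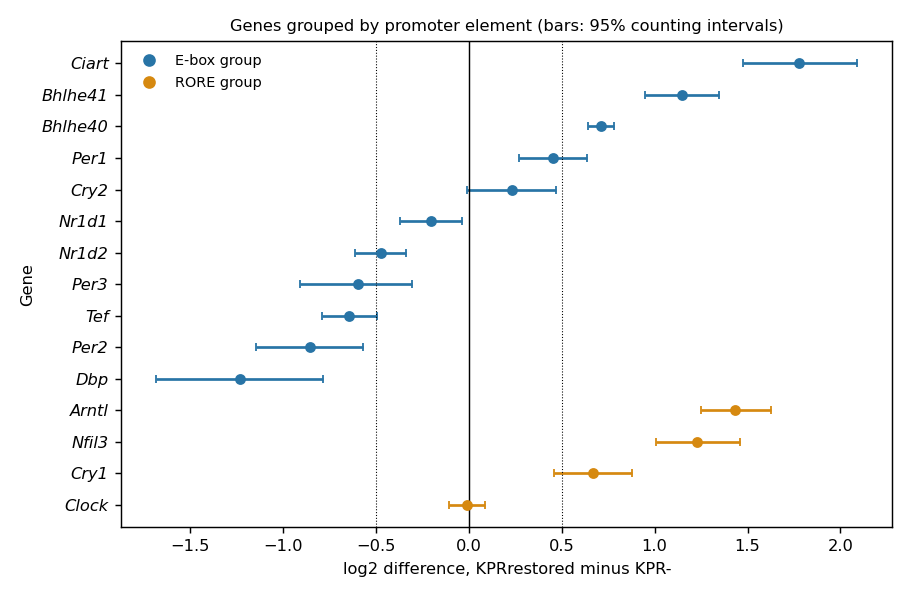
Log2 difference (horizontal axis, KPRrestored minus KPR-) of the expressed genes known to be driven through the E-box (blue) and the RORE (orange), with 95% counting intervals and dotted lines at the threshold of 0.5 either way. The E-box genes run from 1.78 for *Ciart* to -1.23 for *Dbp*, and the RORE genes from 1.44 for *Arntl* to -0.01 for *Clock*.

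Of the 5 activator paralogues and ROR receptors, only *Arntl2*, the paralogue of *Arntl*, passed the filter. It had 2.36 FPKM in KPR- and 4.03 FPKM in KPRrestored, a difference of 0.77 (interval 0.36 to 1.19). The paralogue of *Clock*, *Npas2*, had 0 and about 1 fragment. *Rora* and *Rorb*, which encode ROR receptors, had low levels, and their values are given although they fall outside the rule for naming genes. *Rora* had 0.0172 and 0.129 FPKM, from about 4 and 31 fragments (interval of the difference 1.41 to 4.87). *Rorb* had 0.363 and 0.586 FPKM, from about 72 and 120 fragments.

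The 12 secondary loop and output factors had 9 expressed members, with 4 higher, 1 lower and a median difference of 0.46. The 4 were *Ciart*, *Nfil3*, *Bhlhe41* and *Bhlhe40*, and the lower one was *Tef*, where 12.1% of all genes were higher and 9.29% lower. *Hlf*, the third gene of the *Dbp* and *Tef* family, had about 3 and 2 fragments, too few to compare. Some genes are on several of these lists, so the lists are not separate evidence.

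The proteins of the clock are themselves controlled by kinases that mark PER and CRY and by ubiquitin ligases that remove them. A list of 15 genes held such kinases or their subunits, ubiquitin ligases, and *Usp7*, whose protein removes ubiquitin. Of these 15 genes 14 were expressed, with 1 higher, 1 lower and a median difference of 0.13, beside 12.1% and 9.29% of all genes. *Siah2*, a ubiquitin ligase that acts on REV-ERBα, had 6.04 FPKM in KPR- and 10.1 FPKM in KPRrestored, a difference of 0.74 (interval 0.54 to 0.96). *Huwe1*, a large ubiquitin ligase, had 53.9 and 36.7 FPKM, a difference of -0.56. All 15 cofactors of the PER and CRY complex or of CLOCK and BMAL1 were expressed. Of these, 0 were higher and 2 lower, with a median of -0.11, beside the same 12.1% higher and 9.29% lower of all genes. *Timeless*, which also acts at the replication fork, had 20.1 and 13.8 FPKM (difference -0.54), and the helicase gene *Dhx9* had 121 and 77.0 FPKM (difference -0.66). On both lists each difference was smaller in size than those of *Arntl*, *Dbp* and *Per2*.

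**Figure D4:**
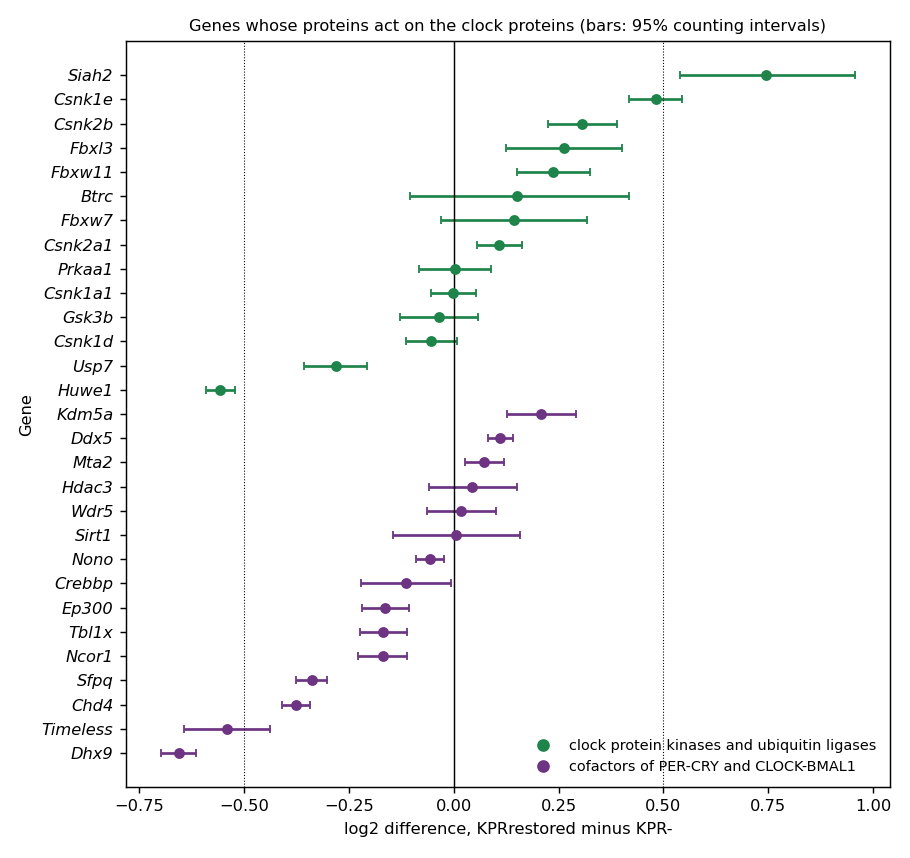
Log2 difference (horizontal axis, KPRrestored minus KPR-) of 14 expressed genes for kinases, ubiquitin ligases and USP7 (green) and 15 cofactor genes (purple). Bars give 95% counting intervals, and dotted lines stand at 0.5 either way. *Siah2* (0.74) lies above the upper line, *Huwe1* (-0.56), *Timeless* (-0.54) and *Dhx9* (-0.66) below the lower one, and the other genes between the lines.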

How the data were processed

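mRNA sequencing was examined in 1 library of KPR- and 1 library of KPRrestored cells, grouped by the sample labels. The authors selected poly(A) RNA, made directional libraries, trimmed the paired-end reads, mapped them with TopHat (build mm10, per the submitters' processing notes) and deposited FPKM values estimated with Cufflinks. Versions, annotation and the use of strand are not given in the sources used here. The paper also names EdgeR for read counts, which were not used here.

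Differences were taken on the log2(FPKM + 0.005) scale, which understates changes of genes near the pseudocount, over genes whose FPKM averaged at least 1. With 1 library a group no test between conditions was made and no p-value is given. Depth and fragments per gene were estimated from the steps of low FPKM values, using GENCODE M21 transcripts. In genes of 1 transcript with 0.5 to 5.5 estimated fragments, 80.4% (KPR-) and 82.5% (KPRrestored) of values lay within 0.1 of a whole number. The depth was fitted to bring these same values near whole numbers, so the shares describe the fit and do not check it. Fragments use the longest transcript with a RefSeq counterpart and are upper estimates. Intervals are exact Clopper-Pearson limits at 95% for differences and exact Poisson limits for levels. Depth and intervals were tried on simulated Poisson counts with a single length per gene, the intervals at known depths. Error from estimated depth and from genes with several transcripts was not covered by that trial.

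The members and lists were chosen with earlier results of these data known. Named genes were the members, clock pathway genes past the threshold, and at most 2 rises and 2 falls, the largest by log2(FPKM + 1) in each other list. *Npas2*, *Rora*, *Rorb*, *Hlf*, *Usp7*, *Col1a2*, *Sphk2*, *Thra* and *D930015M05Rik*, and markers named at 0, were named outside that rule. A gene on one of the lists is not reported here. Alternatives were other pseudocounts, thresholds, scalings and filters. The software was scipy 1.17.1, numpy 2.4.6, matplotlib 3.10.9 and pandas 2.3.3 under Python 3.11.15.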

Additional observations from a re-analysis of the deposited data

How the results depend on the processing

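No replicate could be left out and no paired analysis was possible because each group holds 1 library. Scaling to the same FPKM total, to the same upper quartile or to the median gene moved the median gene by at most 0.02 and changed no call of a clock gene. With a pseudocount of 1, *Per2* had a difference of -0.54 and *Per3* of -0.36, under the threshold. With a threshold of 1, 1 clock gene was higher (*Arntl*) and 1 lower (*Dbp*), with 325 higher and 155 lower among all genes, 1 lower in the E-box group, 0 higher among activator paralogues and ROR receptors, 0 lower among secondary loop and output factors, 0 higher and 0 lower among kinases and ligases and 0 lower among cofactors. With a mean of at least 5 FPKM, which removes *Per2*, *Per3* and *Dbp*, 0 clock genes were lower and their median was 0.22, the E-box group had 1 lower and a median of 0.13, 0 activator paralogues and ROR receptors were higher and none were left for a median, and 872 higher and 641 lower genes remained in all. With no filter, 3193 genes were higher and 3002 lower, 4 activator paralogues and ROR receptors and 2 kinases and ligases were higher, 3 secondary loop and output factors were lower with a median of 0.26, and the E-box group had a median of -0.45. With the shortest coding transcript, 6 in place of 8 clock genes had an interval that excluded 0: the interval of *Per1* was then -0.33 to 1.18, and that transcript of *Cry1* was too short for an estimate. With *Cry1* added to the E-box group, an alternative chosen after seeing the data, that group's median was 0.016. The other counts stayed within 1.5 times their reported value, though not all kept each call: a pseudocount of 1 left 1043 higher and 762 lower genes in all, and a threshold of 1 left 2 higher in the RORE group, 2 higher in the E-box group and 3 higher among secondary loop and output factors, while no filter gave 4 higher in the RORE group and 5 lower in the E-box group. The other differences stayed within their counting intervals.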

Other observations

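Genes that respond to signals known to act on *Per1* and *Per2* were set beside the clock genes. Their lists were chosen with earlier results of these data known, so the counts beside the shares of all genes are descriptive only. Of 11 immediate-early genes of serum and cAMP signalling, 10 were expressed, with 7 higher by 0.5 or more in KPRrestored, 0 lower and a median log2 difference of 0.89, where 12.1% of all genes were higher and 9.29% lower. The largest differences on the log2(FPKM + 1) scale were those of *Atf3* and *Dusp1*. *Srf*, the factor through which serum acts on many of these genes, had a difference of -0.01.

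Of 8 genes that respond to glucocorticoids, 7 were expressed, with 3 higher, 1 lower and a median of 0.29, beside the same shares of all genes. *Tsc22d3* had 8.85 and 28.2 FPKM (difference 1.67) and *Klf9*, which is also a clock output in several tissues, had 8.73 and 14.6 FPKM (difference 0.74). *Fkbp5*, a chaperone of the receptor, had 32.7 and 21.3 FPKM, a difference of -0.62 in the other direction. The receptor gene *Nr3c1* had 9.46 and 9.03 FPKM. The 12 reference genes had a median of -0.05, with 0 higher and 0 lower.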
